A study of Mus musculus with 18 samples.

Results

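The 9 genes described here carry the signal of type I interferon and of gp130 cytokines from the cell surface to the nucleus. They were chosen by name, as Ifnar1, Ifnar2, Jak1, Jak2, Tyk2, Stat2, Stat3, Socs1 and Socs3, from the 33440 genes to which the reads of the series were summed. All 9 were found, and all 9 passed the filter on low counts in every comparison. RNA was sequenced in 18 libraries of mouse adipocytes, in 2 experiments on C57BL/6 mice that manipulate IRF3, a transcription factor of innate immunity that induces interferon-stimulated genes.

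In the first experiment, cells of the stromal-vascular fraction (SVF) of inguinal fat were taken from IRF3-2D mice, which carry an allele of constitutively active IRF3 that stays silent until Cre acts. They were differentiated into adipocytes in culture and received either AAV-GFP, giving 3 WT libraries, or AAV-GFP-Cre, giving 3 FI3OE libraries. Both groups thus held the IRF3-2D allele and a virus with GFP, and FI3OE differed from WT in Cre as well as in active IRF3. The donors were mice a few weeks old. The methods name both sexes for the SVF cells but only males for the fat pads, so the sex of these donors is unclear. In the second experiment, RNA on ribosomes was isolated by translating ribosome affinity purification (TRAP) from epididymal fat (eWAT) of Ad-NuTRAP mice (WT, 6 libraries) and FI3KO-Ad-NuTRAP mice (FI3KO, 6 libraries). These mice were fed a high-fat diet (HFD) at thermoneutrality for 8 weeks, and their age is not given in the labels. The ribosomal tag and the Irf3 deletion are both driven in adipocytes by Adipoq-Cre, so Irf3 remained intact in the other cells of the fat pad. The labels call every library a biological replicate, and nothing says whether cultures or animals were pooled.

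Type I interferons bind a receptor of IFNAR1 and IFNAR2, to which the kinases TYK2 and JAK1 are attached. The kinases phosphorylate STAT proteins. STAT2 joins IRF9 in the complex ISGF3, which binds interferon-stimulated response elements (ISRE), while other STAT pairs bind gamma-activated sequences (GAS). Cytokines that use gp130, such as IL-6 and LIF, signal through JAK1, JAK2 and STAT3, and JAK2 also serves the leptin and growth hormone receptors. SOCS1 and SOCS3 are induced by STATs and shut the kinases off, which closes the loop.

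The sequence before each gene's start was searched for the letters of these elements, on both strands: for the ISRE core, a pair of GAAA with any 2 bases between, and for GAS, TTC and GAA with any 3 bases between. The windows were the 250 bases before the RefSeq start (GRCm38.p6). The 3 windows printed here are shown because they belong to Stat2, Ifnar2 and Socs1, whose levels differed with IRF3 in at least 1 experiment, and because each holds a match, printed in capitals. The Stat2 window (chr10:128270248-128270497, plus strand) holds 1 ISRE core from 222 to 213 bases before the start, with the motif's letters on the minus strand. The Socs1 window (chr16:10785537-10785786, minus strand) holds 2 ISRE cores that overlap each other, from 83 to 74 and from 77 to 68 bases before the start. The Ifnar2 window (chr16:91372533-91372782, plus strand) holds 1 GAS, from 214 to 206 bases before the start.
Stat2: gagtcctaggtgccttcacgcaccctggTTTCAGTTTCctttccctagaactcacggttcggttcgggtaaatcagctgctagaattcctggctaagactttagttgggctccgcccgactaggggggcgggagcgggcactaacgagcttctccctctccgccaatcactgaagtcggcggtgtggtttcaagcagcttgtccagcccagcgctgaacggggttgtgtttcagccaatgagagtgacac
Socs1: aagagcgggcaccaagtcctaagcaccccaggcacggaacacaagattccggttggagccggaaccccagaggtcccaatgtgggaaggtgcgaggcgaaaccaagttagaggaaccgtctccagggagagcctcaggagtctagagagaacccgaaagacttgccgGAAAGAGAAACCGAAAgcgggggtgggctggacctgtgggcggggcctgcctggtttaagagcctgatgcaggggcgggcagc
Ifnar2: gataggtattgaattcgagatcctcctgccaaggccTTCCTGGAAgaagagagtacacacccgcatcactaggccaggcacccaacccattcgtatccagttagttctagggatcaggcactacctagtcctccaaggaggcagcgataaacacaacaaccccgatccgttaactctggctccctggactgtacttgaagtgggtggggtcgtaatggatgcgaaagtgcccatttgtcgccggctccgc

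Among 32851 windows of this length in the RefSeq set, 2.98% held the ISRE core and 7.02% held GAS. A match describes the letters in the window and does not show that a factor binds there. The Socs3 window also held a GAS, from 154 to 146 bases before the start, but it overlaps an exon in GENCODE and is not printed. The windows of Ifnar1, Jak1, Jak2, Tyk2 and Stat3 held neither set of letters. On GRCm38, Ifnar2 (chr16:91372783-91405589) and Ifnar1 (chr16:91485238-91507441) lie on the same strand of chromosome 16. Stat3 (chr11:100885098-100939540) and Socs3 (chr11:117966079-117970047) share chromosome 11. Jak1 lies at chr4:101152367-101265282, Jak2 at chr19:29251828-29313080, Tyk2 at chr9:21104068-21131243, Stat2 at chr10:128270559-128292849 and Socs1 at chr16:10782240-10785536.

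Libraries held between 21541334 and 40490283 reads assigned to transcripts, and levels are given as CPM, the reads scaled to a fixed library total. Irf3 itself stood between 90.8 and 100.3 CPM in FI3OE and between 56.8 and 58.6 CPM in WT cultures, and these counts do not separate the active allele from the native gene. In TRAP, Irf3 reads fell only in part, to between 12.4 and 18.8 CPM in FI3KO from between 17.2 and 23.2 CPM in WT. In TPM, a level per transcript length, Irf3 was instead higher in FI3KO (55.1 to 93.5) than in WT (37.8 to 47.3). The transcript Irf3-202 held 0 reads in all 6 FI3KO libraries and between 164 and 388 reads in WT. Summed adipocyte markers (18 genes) were between 40846 and 51500 CPM in TRAP and between 14722 and 16981 CPM in the cultures. The cultures also held 10 preadipocyte and fibroblast markers at between 17948 and 18442 CPM and 18 macrophage markers at between 2292 and 2540 CPM, so they were mixed. In bulk RNA of this kind, fewer cells of a type and less RNA per cell cannot be told apart. In FI3KO TRAP, replicates 1 and 2 stood apart from replicates 3 to 6 in their counts over all genes. Chi-square per degree of freedom was at least 110.7 for pairs across these sets and at most 86.3 within replicates 3 to 6. In WT TRAP, replicates 1 and 2 were close (2.54). WT replicates 3 and 5 differed by 126, however, which is within the 74.4 to 130 of pairs across the sets. The labels name no batch for these sets. TRAP fold changes of the 9 genes are given within each set as well as over all replicates. The same holds for the named pathway genes other than Il11ra1, Jak3 and Stat6.

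**Figure D1:**
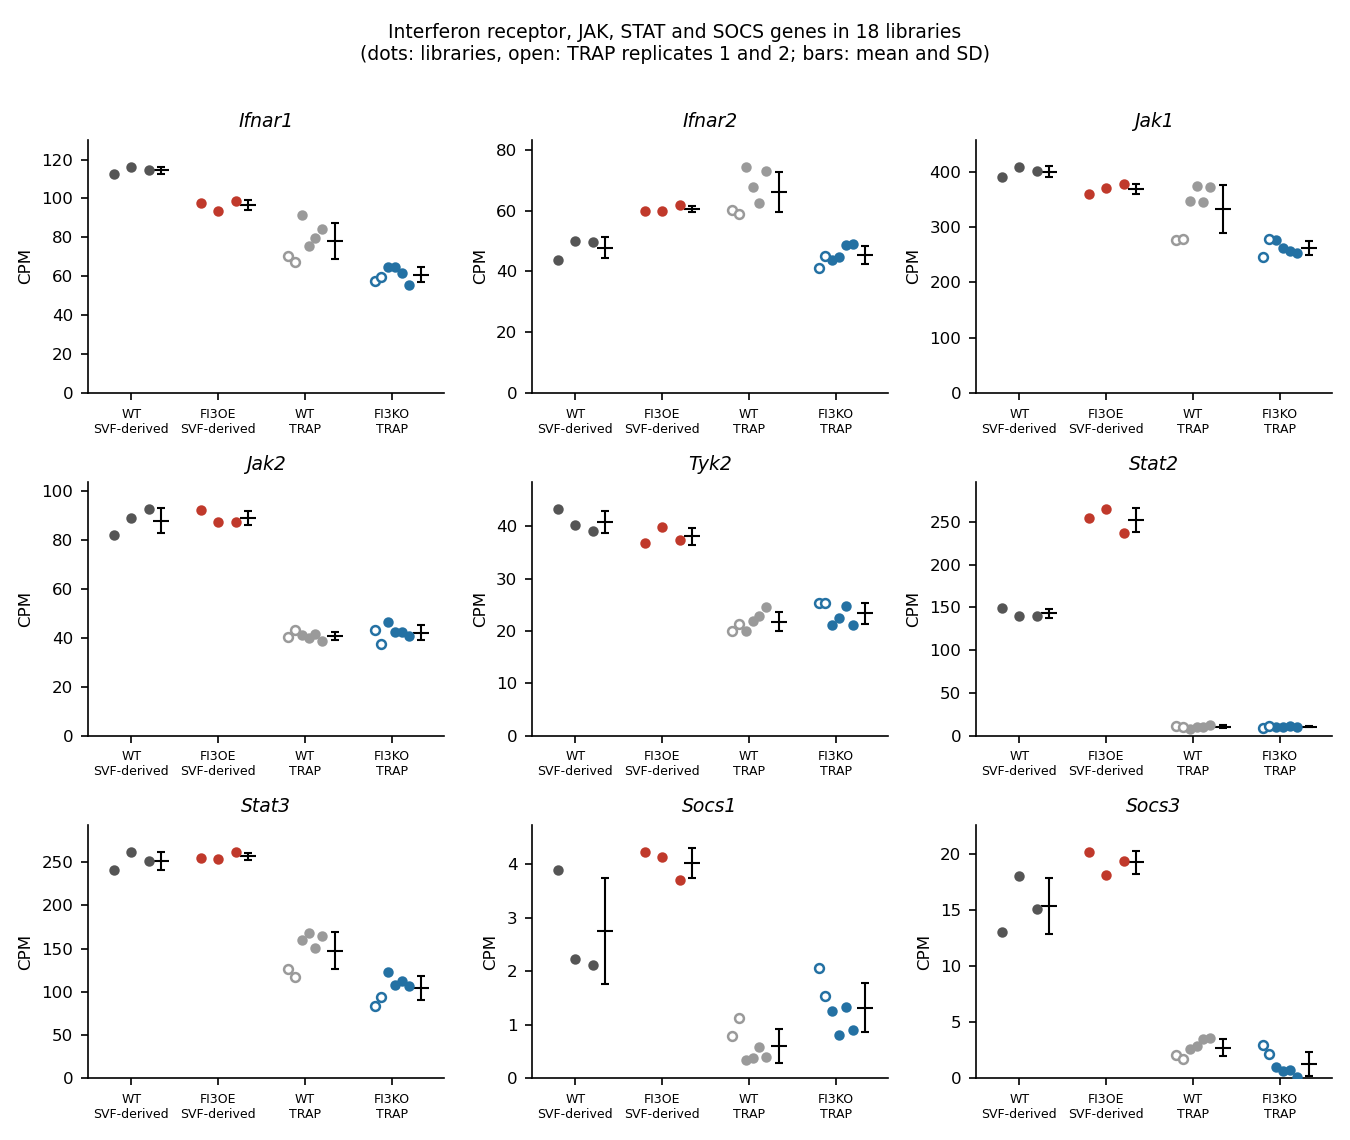
Levels of the 9 genes in CPM, with each library as a dot (open dots are TRAP replicates 1 and 2) and mean and SD as bars, for 3 WT and 3 FI3OE cultures and 6 WT and 6 FI3KO TRAP libraries. Stat2 stands between 237 and 265 CPM in FI3OE and between 139.8 and 149 CPM in WT cultures, and Ifnar1 and Ifnar2 are lower in every FI3KO than in every WT TRAP library.

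The question of the culture experiment was which genes respond when active IRF3 is switched on in adipocytes. Stat2 rose most, while the 2 receptor chains moved in opposite directions and none of the 3 kinases passed the test. Of the 9 genes, 4 were called at an adjusted p of at most 0.05 (Stat2, Ifnar2 and Socs3 higher, Ifnar1 lower), where 37.0% of 16105 genes tested were called (20.2% higher and 16.8% lower), so that share is near the background. None of the 9 reached a log2 fold change of 1, which 3.62% of all genes did together with that p. The median log2 fold change was 0.05 over the 9 genes and -0.0047 over all genes tested.

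Stat2, the ISGF3 subunit that is specific to interferon receptors, was measured at 254, 265 and 237 CPM in the 3 FI3OE libraries. In WT it was 149, 139.8 and 140.2 CPM, so every FI3OE library lay above every WT library. Stat2 rose 1.78-fold, or 0.83 on the log2 scale with a standard error of 0.047 (adjusted p = 1.3e-07). All adjusted p-values for genes are those of Benjamini and Hochberg from the quasi-likelihood test of edgeR. Irf9, which joins STAT2 in ISGF3, also rose, from 62.8, 66.5 and 61.7 CPM in WT to 95.7, 103 and 92.6 CPM in FI3OE, or by 0.63 on the log2 scale. The genes whose profile over the 18 libraries was most like that of Stat2 were Slfn8 and Dhx58, with root mean square differences of 0.21 and 0.22 on the log2 CPM scale.

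Ifnar2, the chain that binds interferon with high affinity and carries JAK1, was at 59.9, 59.9 and 61.8 CPM in FI3OE and at 43.9, 49.9 and 49.6 CPM in WT. The groups did not overlap, and Ifnar2 rose by 0.36 on the log2 scale (standard error 0.054, adjusted p = 0.00031, edgeR). Ifnar1, the chain that carries TYK2, was at 97.7, 93.6 and 98.8 CPM in FI3OE and at 112, 116 and 115 CPM in WT. All 3 FI3OE libraries were below WT, and Ifnar1 fell by 0.23 on the log2 scale (standard error 0.037, adjusted p = 0.00056, edgeR). In a fit of all 18 libraries the call for Ifnar1 was lost (adjusted p = 0.10) with a log2 fold change of -0.22.

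Of the kinases, Jak1 had 360.4, 371 and 378 CPM in FI3OE and 390.3, 409 and 402 CPM in WT. The groups did not overlap, but the difference of -0.10 on the log2 scale missed the threshold (adjusted p = 0.063, edgeR), and 7 of 17 alternatives called it lower. Jak2, at between 87.3 and 92.2 CPM in FI3OE and between 82.2 and 92.4 CPM in WT, had a log2 difference of 0.03 (standard error 0.048, adjusted p = 0.63, edgeR). Tyk2, at between 36.8 and 39.9 CPM in FI3OE and between 39.1 and 43.2 CPM in WT, had one of -0.09 (standard error 0.052, adjusted p = 0.23, edgeR). Stat3, the main STAT of gp130 cytokines, was at 254, 254 and 261 CPM in FI3OE and at 240.4, 261 and 251 CPM in WT, with a log2 difference of 0.05 (standard error 0.041, adjusted p = 0.38, edgeR). Jak2, Tyk2 and Stat3 overlapped between the groups and none was called in any of the 17 alternatives. Over the 9 genes, groups did not overlap in CPM for 3 that were higher and 2 that were lower, beside 49.8% of all genes tested (24.1% higher and 25.7% lower).

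The feedback inhibitors had the lowest CPM of the 9 genes in the cultures. Socs3, which acts on gp130 and leptin receptors, was at 20.2, 18.2 and 19.4 CPM in FI3OE and at 13.0, 18.1 and 15.1 CPM in WT. The groups did not overlap, but WT replicate 2 lay just under FI3OE replicate 2. Socs3 rose by 0.34 on the log2 scale (standard error 0.10, adjusted p = 0.021, edgeR), and the call was lost without FI3OE replicate 1 (adjusted p = 0.0598), FI3OE replicate 3 (0.0595), WT replicate 1 (0.0782) or WT replicate 3 (0.0618), with the length offset (0.125) and in the fit of all 18 libraries (0.81). Socs1, which inhibits the kinases of interferon receptors, was at 4.23, 4.13 and 3.71 CPM in FI3OE and at 3.89, 2.23 and 2.13 CPM in WT. WT replicate 1 lay within the range of FI3OE. With it the log2 fold change of Socs1 was 0.56 (standard error 0.21, adjusted p = 0.057, edgeR), and without it 0.89 (adjusted p = 0.0022).

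**Figure D2:**
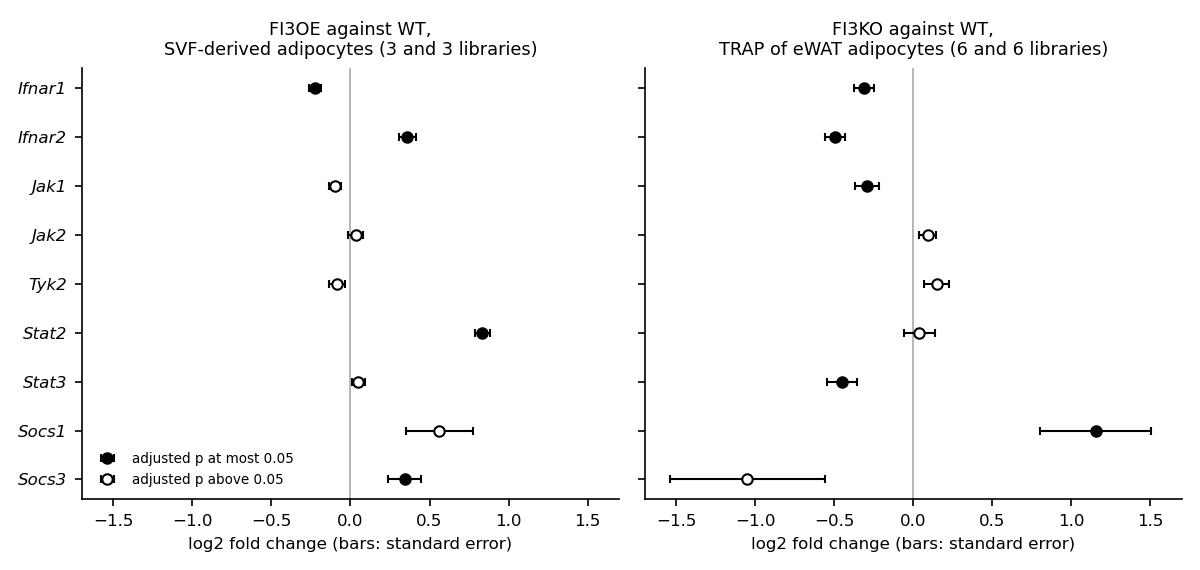
Log2 fold change of each gene with its standard error, for FI3OE against WT cultures (3 and 3 libraries) and for FI3KO against WT TRAP (6 and 6 libraries), with filled dots for an adjusted p of at most 0.05. Ifnar2 is at 0.36 with active IRF3 and at -0.49 without Irf3, while Ifnar1 is lower in both, at -0.23 and -0.31.

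The rest of the pathway was read from lists chosen by function. Among interferon genes (21 listed), only Ifnz passed the filter in the cultures, with a log2 fold change of 0.62 and an adjusted p of 0.29 in edgeR, and 16 of the 21 had no read in any of the 3 FI3OE libraries. Of 7 gp130 cytokines tested, 3 rose (Il6, Lif and Clcf1) and 0 fell, with Il6 going from 2.23 ± 0.36 to 4.65 ± 0.92 CPM (SD, n = 3; adjusted p = 0.00082, edgeR). Of 18 other receptors coupled to JAKs, 4 rose and 4 fell, near the 20.2% and 16.8% of all genes. Among other STATs, Stat6 rose (0.21) and Stat5a fell (-0.30). Of 16 other negative regulators, 5 rose and 1 fell, about the share called among all genes (37.0%). Among them Usp18, which binds IFNAR2 and blocks JAK1, went from 51.5 ± 2.9 to 135 ± 8.4 CPM (SD, n = 3), a log2 fold change of 1.41.

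Targets of the pathway were read from 3 lists. The counts for these lists and for the markers below stand beside 20.2% of all genes called higher and 16.8% called lower. Of 26 ISGF3 targets tested, 25 rose and 1 (Ifi27) fell, with a median log2 fold change of 1.36, and the largest rises were those of Ifit3 (2.34), Oasl1 (2.33) and Ifit1 (2.08). Of 14 GAS targets, 12 rose and 0 fell, led by the chemokines Cxcl10 (2.45) and Cxcl9 (1.51) and by Gbp3 (1.49). Of 16 STAT3 targets, 7 were higher and 3 lower, with a median of 0.10, and Timp1 alone passed a log2 fold change of 1 (1.32). Macrophage markers summed to between 2292 and 2309 CPM in FI3OE and between 2384 and 2540 CPM in WT. Of 16 tested, 4 rose and 4 fell. Of 19 immediate-early genes, 11 rose and 1 fell (median log2 fold change 0.27), and Fos was between 12.9 and 13.3 CPM in FI3OE and between 7.33 and 7.95 CPM in WT. The part of either set of markers in these results, that of Socs3 included, was not tested.

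The TRAP experiment asked which genes depend on Irf3 in adipocytes of HFD-fed mice. Both receptor chains, Jak1 and Stat3 were lower in FI3KO, Socs1 was higher, and Stat2, Jak2 and Tyk2 did not pass the test. That is 5 of the 9 genes, 4 of them lower and 1 higher, where 37.4% of 13624 genes tested were called. Of all genes, 18.3% were called lower and 19.1% higher. The groups did not overlap for 2 of the 9 genes, Ifnar1 and Ifnar2, both lower, and 0 were higher without overlap. Of all genes, 15.2% did not overlap, 9.84% lower and 5.39% higher. The median log2 fold change was -0.29 over the 9 genes and 0.02 over all genes.

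Ifnar2 ranged from 41.1 to 49.1 CPM (median 44.97) in FI3KO and from 58.9 to 74.4 CPM (median 65.2) in WT. The highest FI3KO library thus stayed below the lowest WT library. Ifnar2 fell by 0.49 on the log2 scale (standard error 0.062, adjusted p = 0.00018, edgeR) and was called in 26 of 27 alternatives. Ifnar1 ranged from 55.7 to 65.0 CPM (median 60.9) in FI3KO and from 67.3 to 91.8 CPM (median 77.6) in WT, again without overlap. It fell by 0.31 on the log2 scale (standard error 0.064, adjusted p = 0.0027, edgeR), and with an offset for transcript length the value was -0.10 and the call was lost (adjusted p = 0.52).

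Jak1 ranged from 246 to 279 CPM (median 259) in FI3KO and from 277 to 374 CPM (median 346) in WT. The 2 lowest WT libraries were replicates 1 and 2, at 277 and 279 CPM, level with the highest of FI3KO. Jak1 fell by 0.29 on the log2 scale (standard error 0.075, adjusted p = 0.0090, edgeR), and the adjusted p was 0.051 with the length offset. Stat3 ranged from 83.1 to 122 CPM (median 108) in FI3KO and from 117 to 168 CPM (median 155) in WT, with 5 of 6 FI3KO libraries below every WT library. It fell by 0.45 on the log2 scale (standard error 0.096, adjusted p = 0.0033, edgeR). Jak2 (37.5 to 46.4 CPM in FI3KO, 38.6 to 43.2 in WT), Tyk2 (21.1 to 25.3 in FI3KO, 19.9 to 24.6 in WT) and Stat2 (9.29 to 11.4 in FI3KO, 8.32 to 12.3 in WT) overlapped between genotypes. Their log2 fold changes were 0.09, 0.15 and 0.04, with adjusted p of 0.21, 0.15 and 0.79 in edgeR, and none of the 27 alternatives called them.

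Socs1 was sparse in TRAP, with between 26 and 54 reads a library in FI3KO and between 11 and 43 in WT. Its level ranged from 0.804 to 2.06 CPM (median 1.30) in FI3KO and from 0.338 to 1.13 CPM (median 0.491) in WT, and 4 of 6 FI3KO libraries lay above every WT library. Socs1 rose by 1.15 on the log2 scale (standard error 0.35, adjusted p = 0.021, edgeR), or 2.22-fold, and without WT replicate 6 the adjusted p was 0.051. It was the only 1 of the 9 past a log2 fold change of 1 with that p, which 6.61% of all genes were. Socs3 ranged from 0.160 to 2.97 CPM (median 0.858) in FI3KO and from 1.71 to 3.58 CPM (median 2.75) in WT, a difference of -1.05 on the log2 scale (standard error 0.49, adjusted p = 0.11, edgeR). Its 2 highest FI3KO libraries were replicates 1 and 2, at 2.97 and 2.16 CPM, and without FI3KO replicate 1 the log2 fold change was -1.51 (adjusted p = 0.022). With a term for replicates 1 and 2 against 3 to 6, Socs3 was called over all replicates, at -1.34 (adjusted p = 0.048, edgeR).

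The genotype difference was therefore read within each set of replicates. Among replicates 3 to 6 alone, Ifnar1 (-0.38), Ifnar2 (-0.53), Jak1 (-0.41), Stat3 (-0.47) and Socs3 (-2.28) fell and Socs1 (1.39) rose, with adjusted p between 0.00013 and 0.0026 in edgeR, where 50.6% of all genes were called. Among replicates 1 and 2 alone, 0 of the 9 genes were called by edgeR, where 3.56% of all genes were. Before adjustment, 4 of the 9 (Ifnar2, Stat3, Socs1 and Tyk2) had a p under 0.05 there, as did 29.1% of all genes. With 2 libraries a genotype, the values were -0.41 for Ifnar2 (adjusted p = 0.052), -0.39 for Stat3 (0.058), -0.16 for Ifnar1 (0.20), 0.95 for Socs1 (0.13), -0.02 for Jak1 (0.85) and 0.48 for Socs3 (0.28). Tyk2 was at 0.36 (0.082) in this set and at 0.04 in replicates 3 to 6. Jak2 was at 0.0085 in replicates 1 and 2 and at 0.14 in replicates 3 to 6, and Stat2 at -0.088 and 0.11, and neither was called in either set. The genotype difference itself depended on the set for Jak1, by -0.39 on the log2 scale (standard error 0.093, adjusted p = 0.0100 for the interaction in edgeR), and for Socs3, by -2.75 (standard error 0.56, adjusted p = 0.0040), where 26.5% of all genes passed the same test. For the other 7 genes the interaction was not called, with adjusted p between 0.12 and 0.65.

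**Figure D3:**
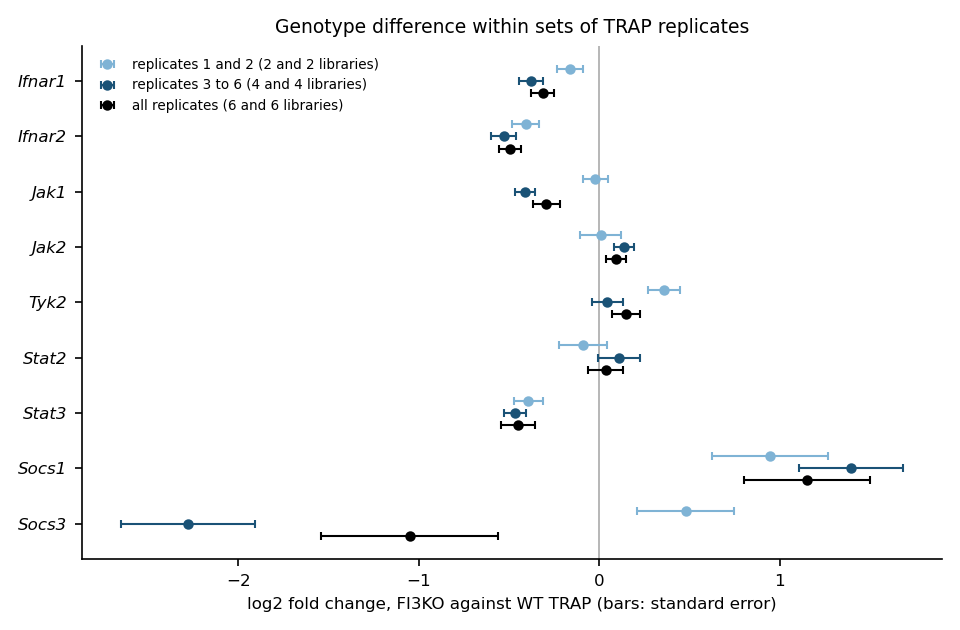
Log2 fold change of FI3KO against WT TRAP with its standard error for replicates 1 and 2, for replicates 3 to 6 and for all 6 replicates a genotype. Ifnar2 (-0.41 and -0.53) and Stat3 (-0.39 and -0.47) are alike in the 2 sets, while Jak1 (-0.02 and -0.41) and Socs3 (0.48 and -2.28) are not.

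Macrophage markers and immediate-early genes were read in the same sets of libraries. The 18 macrophage markers summed to between 17.6 and 20.3 CPM in FI3KO replicates 3 to 6 and to between 72.9 and 103 CPM in WT replicates 3 to 6, but to between 36.3 and 47.4 CPM and between 39.8 and 41.6 CPM in replicates 1 and 2. Of 13 macrophage markers tested, 10 were lower in FI3KO and 1 higher, and Lyz2 ranged from 2.86 to 9.48 CPM in FI3KO and from 9.43 to 24.7 CPM in WT. Immediate-early genes (19 summed) lay between 470.2 and 589.7 CPM in WT replicates 3 to 6 and between 285 and 292 CPM in WT replicates 1 and 2. In FI3KO this sum was also higher in replicates 3 to 6 (358 to 439 CPM) than in replicates 1 and 2 (305 to 325 CPM). Fos was at 4.45 and 4.06 CPM in WT replicates 1 and 2 and between 36.2 and 67.7 CPM in WT replicates 3 to 6. In FI3KO, Fos did not separate the sets (8.39 and 12.6 CPM in replicates 1 and 2, 3.53 to 13.8 in 3 to 6). Egr1 was higher in FI3KO replicates 1 and 2 (16.5 and 17.5 CPM) than in 3 to 6 (2.75 to 12.9), the reverse of WT (3.32 and 3.51 against 17.9 to 39.2). The part of these markers in the results was not tested. Lymphocyte markers summed to at most 1.43 CPM in TRAP.

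The pathway lists in FI3KO TRAP are read beside the 18.3% of all genes called lower and 19.1% called higher. Of 17 other JAK-coupled receptors tested, 9 fell and 1, Il11ra1, rose. The oncostatin M receptor Osmr fell (30.7 ± 6.6 against 78.1 ± 22.1 CPM, SD, n = 6; adjusted p = 0.00036 in edgeR). Of 4 gp130 cytokines tested, Lif fell, Ctf1 rose (0.47) and the median was -0.08. Lif went from 4.81 ± 2.28 to 0.586 ± 0.390 CPM (SD, n = 6), a log2 fold change of -2.98. Of 16 STAT3 targets, 7 fell and 2 rose, with a median log2 fold change of -0.38. The acute-phase genes Lcn2 (-2.76) and Saa3 (-2.75) and the nuclear factor Bcl3 (-1.93) fell furthest, and Pim3 (1.04) rose. Of 24 ISGF3 targets, 6 fell and 0 rose, with a median log2 fold change of -0.28 and Zbp1 (-1.19) lowest. Of 14 GAS targets 5 fell and 1 rose, with Ciita (-1.37) lowest. Of 15 other negative regulators 4 rose and 2 fell, and Jak3 (-0.36) and Stat6 (-0.37) fell. No interferon gene passed the filter in TRAP, and 20 of 21 had no read in FI3KO.

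Within the replicate sets these differences were not equally large, and neither was the share of all genes called, at 50.6% in replicates 3 to 6 and 3.56% in replicates 1 and 2, so counts of calls are not comparable between the sets. In replicates 3 to 6 the log2 fold changes of Lif (-4.10), Lcn2 (-3.26), Saa3 (-3.30), Bcl3 (-2.23), Ciita (-2.05), Osmr (-1.51) and Zbp1 (-1.23) were all called by edgeR, as were those of Pim3 (1.24) and Ctf1 (0.66). In replicates 1 and 2, Osmr (-0.71, adjusted p = 0.042) and Pim3 (0.80, adjusted p = 0.019) were called. Lif (-0.97), Lcn2 (-0.50), Saa3 (-0.74), Bcl3 (-1.001), Ciita (-0.31), Zbp1 (-1.07) and Ctf1 (0.14) were not, with adjusted p between 0.061 and 0.67. Of the 16 STAT3 targets, 10 fell and 3 rose in replicates 3 to 6 (median -0.70), against 1 and 3 in replicates 1 and 2 (median 0.08), so the direction of this list's median rests on replicates 3 to 6. Of the 17 receptors, 12 fell and 3 rose in replicates 3 to 6 and 2 fell and 0 rose in replicates 1 and 2.

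Ifnar2 gives both a membrane receptor and a soluble form by alternative splicing. In every group most of its TPM (a level per transcript length) came from Ifnar2-203, which encodes 248 codons, with mean shares between 74.5% and 82.2%. Ifnar2-201, which encodes 513 codons, held 3.43% of Ifnar2 TPM in FI3KO, 4.09% in WT TRAP, 9.50% in FI3OE and 12.7% in WT cultures. In TRAP both were lower in FI3KO without overlap, whereas Ifnar2-204 (17.9% of Ifnar2 TPM in FI3KO and 13.3% in WT) overlapped, at 2.70 to 7.86 CPM in FI3KO and 3.01 to 6.83 CPM in WT. Ifnar2-203 was at 33.2 to 39.4 CPM in FI3KO and 48.2 to 58.6 CPM in WT, and Ifnar2-201 at 3.84 to 6.01 CPM in FI3KO and 6.13 to 10.9 CPM in WT. Permuting the libraries exactly, on both sides and after adding 0.1 to the CPM before taking log2, gave p = 0.0022 for each, the smallest this design allows, and 0.012 after Benjamini-Hochberg adjustment over the 17 transcripts of the 9 genes that were tested. No test of the transcripts was made in the cultures. Ifnar2-203 was at 36.2, 40.9 and 38.4 CPM in FI3OE and 27.0, 28.9 and 27.1 CPM in WT, whereas Ifnar2-201 was at 14.6, 16.6 and 15.3 CPM in FI3OE and 16.9, 11.9 and 16.01 CPM in WT, which overlap. Salmon divides reads among overlapping transcripts by estimate, so these values carry an error that the spread between libraries shows only in part. The transcripts were picked after gene values were seen.

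**Figure D4:**
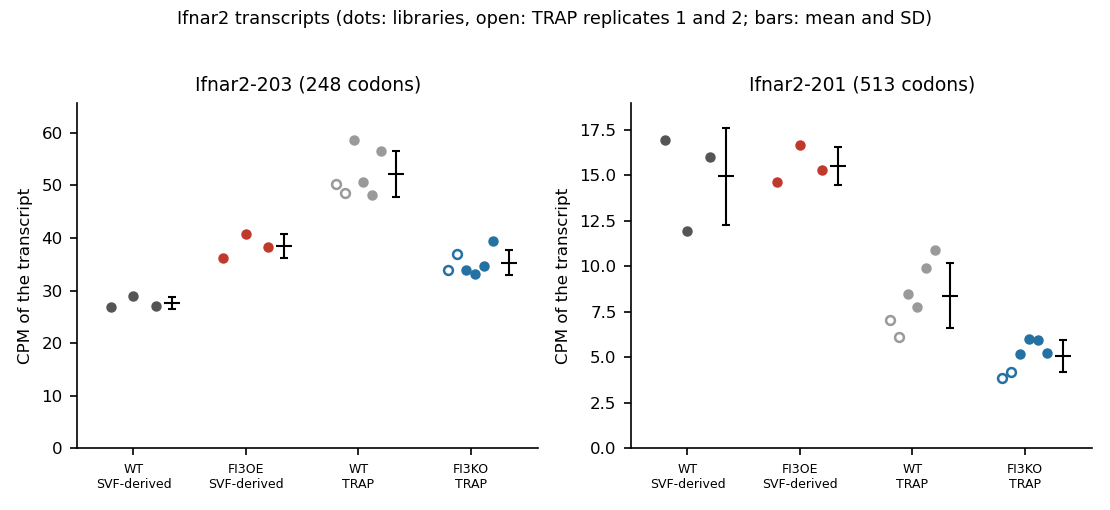
Levels in CPM of Ifnar2-203 (248 codons) and Ifnar2-201 (513 codons) in each library, with mean and SD as bars. FI3OE lies above WT cultures for Ifnar2-203 only, and FI3KO lies below WT TRAP for both.

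For Ifnar1, the full-length transcript Ifnar1-201 (590 codons) ranged from 49.7 to 61.8 CPM in FI3KO and from 63.2 to 87.1 CPM in WT TRAP (p = 0.0022, exact permutation test, 0.012 adjusted over 17 transcripts). The 468-base transcript Ifnar1-207, annotated for nonsense-mediated decay, held between 1.06 and 4.77 CPM in TRAP but 37.2% of Ifnar1 TPM in FI3KO and 28.2% in WT. The offset for transcript length, under which the Ifnar1 call was lost, uses these shares. For Stat3, the transcripts Stat3-203 (770 codons) and Stat3-201 (769 codons) were both lower in FI3KO, at 80.9 ± 14.1 against 111 ± 17.95 CPM and at 18.9 ± 3.4 against 29.3 ± 7.1 CPM (SD, n = 6), with adjusted exact p of 0.037 and 0.022. Jak2-202 (1132 codons) was higher in FI3KO, at 34.3 ± 3.2 against 28.5 ± 3.7 CPM (SD, n = 6; adjusted exact p = 0.037), with the groups overlapping, while the gene as a whole was not called. The overlapping transcript Jak2-204, with as many codons, was at 0 to 4.51 CPM in FI3KO and 0 to 12.8 CPM in WT (adjusted exact p = 0.25) and was listed at 0 in 4 FI3KO and 2 WT libraries, so the division of reads between the pair is uncertain. Within each replicate set, Ifnar2-203, Ifnar2-201, Ifnar1-201 and Stat3-203 were lower in every FI3KO than in every WT library. Stat3-201 and Jak2-202 overlapped in replicates 3 to 6.

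Levels in the 2 WT groups were ordered by TPM, which can be compared between genes. In WT TRAP the order was Jak1 (148 ± 24 TPM, SD, n = 6), Ifnar2 (144 ± 14), Stat3 (87.5 ± 11.9), Ifnar1 (54.9 ± 5.9), Jak2 (17.1 ± 0.68), Tyk2 (12.1 ± 1.1), Stat2 (6.97 ± 1.77), Socs3 (3.66 ± 1.13) and Socs1 (0.618 ± 0.322). Jak1 and Ifnar2 overlapped, as did Stat2 and Socs3, and the other neighbours did not. In WT cultures the order was Jak1 (167 ± 9.9 TPM, SD, n = 3), Stat3 (161 ± 6.2), Stat2 (94.6 ± 6.9), Ifnar2 (78.9 ± 9.6), Ifnar1 (60.2 ± 1.5), Jak2 (34.1 ± 2.4), Tyk2 (21.9 ± 1.7), Socs3 (18.5 ± 3.2) and Socs1 (2.65 ± 0.97). Here Jak1 overlapped with Stat3 and Tyk2 with Socs3. In FI3OE, Stat3, Stat2 and Jak1 overlapped at 149 ± 6.0, 149 ± 6.0 and 148 ± 4.0 TPM.

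**Figure D5:**
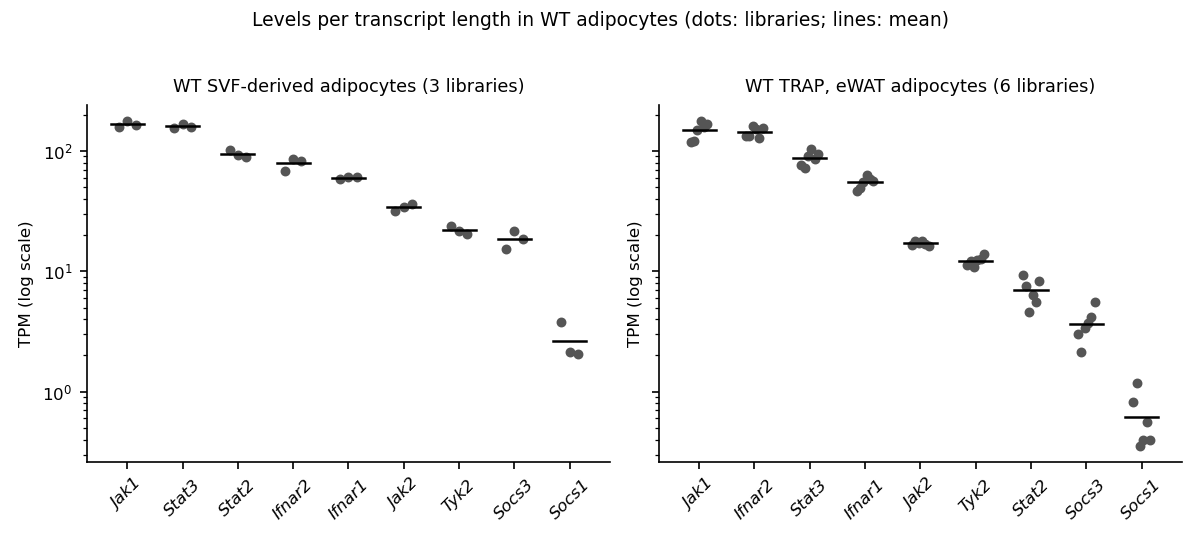
TPM of the 9 genes on a log scale in WT cultures (3 libraries) and WT TRAP (6 libraries), ordered by mean, with dots for libraries and lines for means. Stat2 is the third gene in cultures at 94.6 TPM and the seventh in TRAP at 6.97 TPM.

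The 2 WT groups differ in depot, diet, culture, virus, the IRF3-2D allele, RNA fraction and cell content, which cannot be told apart, and the groups were prepared as separate experiments. Macrophage markers were lower in TRAP for 15 of 17 tested (median log2 fold change -4.98) and preadipocyte and fibroblast markers for 8 of 10 (median -2.64), and their part in the result was not tested. Between the groups 80.2% of 16454 genes were called (38.1% higher and 42.1% lower in TRAP), and so were 7 of the 9, with 1 higher and 6 lower. A log2 fold change of 1 was passed as well by 3 of the 9 and by 46.9% of all genes. Groups did not overlap for 9 of the 9 genes, 1 higher and 8 lower, and for 78.3% of all genes (22.4% higher and 55.9% lower), in CPM without TMM factors. Lower in TRAP were Stat2, with a log2 fold change of -3.31 (adjusted p = 1.1e-09, edgeR), Socs3 with -2.04 (5.1e-06) and Socs1 with -1.704 (0.0023), followed by Jak2 (-0.65), Tyk2 (-0.45) and Stat3 (-0.31). The call for Stat3 was lost without WT culture replicate 2 (adjusted p = 0.074) or replicate 3 (0.053). Ifnar2 was higher in TRAP, by a log2 fold change of 0.93 (adjusted p = 2.0e-06, edgeR). Ifnar1 (-0.09) and Jak1 (0.19) were not called. With library totals in place of TMM factors the median of all genes moved from -0.07 to -0.53, and the values of Ifnar1 and Jak1 were then -0.55 (adjusted p = 0.00020) and -0.27 (0.035), so that both were called lower and Jak1 changed sign. Under library totals Ifnar2 (0.47), Stat3 (-0.77), Tyk2 (-0.91) and Jak2 (-1.11) were still called, and Jak2 passed a log2 fold change of 1 in size. Jak1 was called higher in the fit of all 18 libraries (0.21, adjusted p = 0.026), without WT TRAP replicate 1 (0.23, 0.036) and without WT TRAP replicate 2 (0.23, 0.038). Ifnar1 was called lower among genes with at least 10 counts in every library (-0.27, adjusted p = 0.0073) and higher with the length offset (0.30, 0.0094).

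Apart from Stat2, the genes closest to each member by the same measure were Brms1l and P4hb for Ifnar1, Stat6 and Cyb5r3 for Ifnar2, Rasa1 and Echdc1 for Jak1, Nemp1 and Spred1 for Jak2, Ccdc82 and Zswim8 for Tyk2, Copb1 and Prr14l for Stat3, and Wdfy4 and Pik3cd for Socs3. Their root mean square differences over 18 libraries were between 0.068 and 0.10 on the log2 CPM scale, except for Socs3 with 0.48 and 0.49. Socs1 was too low for this measure.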

How the data were processed

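RNA was sequenced from 6 libraries of SVF-derived adipocytes and 12 TRAP libraries. The authors trimmed reads with fastp, estimated transcript abundance with Salmon 1.4.0 and deposited, per transcript, estimated counts, TPM and effective lengths. Their annotation was GENCODE for GRCm38, and transcripts were matched here to GENCODE M21 by identifier: 117850 of 118733 matched, and the 883 that did not (0.375% to 1.08% of reads) each stood as a separate gene. The deposited estimated counts were summed per gene and rounded to whole numbers for testing, while CPM used the library total. Salmon divides reads among transcripts by estimate, so short or overlapping transcripts are less certain than gene sums.

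Each comparison was fitted alone with edgeR 4.0.16 (R 4.3.3): filterByExpr, TMM factors, the quasi-likelihood test and Benjamini-Hochberg adjustment over all genes, with calls at an adjusted p of at most 0.05. The standard error is the log2 fold change divided by the square root of F. Transcripts were compared with exact permutation tests (scipy 1.17.1). The scripts were tested on simulated data. Alternatives included DESeq2 1.42.0, other filters and scalings, a length offset, all 18 libraries in 1 fit, a replicate block and leaving out each library. P-values measure the spread between these libraries. WT TRAP replicates 1 and 2 were the closest pair but differed beyond sampling noise (chi-square per degree of freedom 2.54). This value cannot tell 2 animals from repeats of 1. The labels call each a biological replicate, and each was counted.

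The 9 genes and the lists were chosen with earlier results of these data known. List genes were named where they passed the adjusted p with a log2 fold change of 1 or more in size, up to 3 a list and comparison, and the closest genes by the smallest root mean square difference. Other list genes named (such as Irf9, Ifi27, Clcf1, Stat5a, Il11ra1 and Pim3) were chosen after their values were seen. Some items are not reported here. Sequences are from RefSeq (GRCm38.p6), in which all 9 genes had a window.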

Additional observations from a re-analysis of the deposited data

Results flagged for a closer look

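The difference between FI3KO and WT TRAP depended on the replicate set for 2 of the 9 genes, in a test of the interaction itself with edgeR, which 26.5% of all genes passed, so this count is not particular to these genes. For Jak1 the log2 fold change in replicates 3 to 6 minus that in replicates 1 and 2 was -0.39 (adjusted p = 0.0100), with -0.41 in the former and -0.02 in the latter. For Socs3 the same difference was -2.75 (adjusted p = 0.0040), with -2.28 and 0.48. Socs3 rested on between 5 and 75 reads a library in FI3KO and between 64 and 108 in WT. The labels name no batch for these replicates, so what separates the sets was not tested. Each of the 9 genes was examined for a single outlying library in both TRAP groups of 6 libraries (Dixon's test, critical value 0.625). In 0 of these 18 cases was a library flagged. Such a test can miss 2 libraries that stand apart together, so it does not bear on replicates 1 and 2.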

How the results depend on the processing

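Counts of genes called in FI3OE against WT were 5960, against 3800 with a transcript length offset and 1572 with all 18 libraries in 1 fit. Of the 9 genes, 4 were called, against 2 in the 18-library fit and 0 when a log2 fold change of 1 was also required. In FI3KO against WT TRAP, 5095 genes were called, against 500 in replicates 1 and 2 only, and the count among the 9 was 5, against 3 with the length offset, 0 in replicates 1 and 2 only and 1 when a log2 fold change of 1 was also required. Leaving out each library in turn gave 4949 to 5197 genes and 3 to 5 of the 9 for FI3OE, 3937 to 5343 and 4 to 6 for FI3KO, and 12443 to 13211 and 6 to 8 between the WT groups. Signs turned for Ifnar1 between the WT groups (0.30, length offset), Jak1 between the WT groups (-0.27, library totals), Jak2 in FI3OE (-0.018 to 0.077 when 1 library was left out, negative without WT replicate 1), Stat3 in FI3OE (-0.048, length offset) and Socs3 in FI3KO (0.48, replicates 1 and 2 only). Stat2 in FI3KO was -0.088 in replicates 1 and 2 only, -0.044 with the length offset, -0.029 without WT replicate 3 (0.074 without WT replicate 1) and -0.0077 with library totals. The cause was not tested. The alternatives with library totals, and with WT TRAP replicates 1 and 2 as 1 sample, were chosen after seeing the data. Same-numbered libraries correlated between -0.29 and 0.10, so the numbers were not taken to pair samples; with a replicate block 5658 genes and 6 of the 9 were called in FI3OE, 3632 and 5 in FI3KO, and 12327 and 7 between the WT groups. Socs1 and Socs3 in TRAP are limited by their few reads.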
